A study of Mus musculus with 14 samples.

Results

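Integrins, selectins and their partner receptors are the proteins with which cells hold on to each other and to the matrix around them. The genes described here are 35 named adhesion receptors and counter-receptors of the mouse: the integrin alpha and beta chains that the list gives, 2 endothelial selectins and a selectin ligand, 6 members of the immunoglobulin family, VE-cadherin and the hyaluronan receptor. They were picked by symbol, and all 35 have a row among the 25212 genes of the count table. The study asked what sending bile straight to the ileum does to diet-induced obesity, and how that compares with gastric bypass. RNA from liver was sequenced in 14 mice. The DIO group holds 5 mice with diet-induced obesity and no operation. The GB-IL group holds 4 mice whose gallbladder was joined to the ileum with the common bile duct tied off. The RYGB group holds 5 mice after Roux-en-Y gastric bypass. All 14 were male C57BL/6 mice given a diet with 60% of its energy as fat from 6 weeks of age for 12 weeks before surgery, stayed on that diet afterwards, and gave their livers 8 weeks after surgery. The DIO mice had no sham operation, and the study's sham-operated mice are not among these livers, so the effect of an operation as such cannot be told apart from that of the bile or bypass procedure. Each library was made from a piece of whole liver, from RNA amplified with an Ovation kit. The labels name the TruSeq Stranded mRNA and TruSeq Stranded Total RNA kits without assigning either to a liver.

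An integrin is a pair of chains, alpha and beta, that spans the membrane; inside the cell it is tied to the actin skeleton, and outside it binds matrix proteins or receptors on other cells. Leukocytes leave the blood by rolling on selectins and then stopping when their own integrins grip Icam1 or Vcam1 on the vessel wall, although in the narrow sinusoids of the liver neutrophils can stop without rolling and use Cd44 and hyaluronan as well. Hepatocytes, sinusoidal endothelium, stellate cells, bile duct cells and resident macrophages each carry their own set of integrins, so a piece of whole liver gives a sum over all of them.

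Total counts per library ran from 18223135 in RYGB 1 to 28656631 in RYGB 3. Values per liver are CPM, counts scaled to a common library size, with libraries scaled by the trimmed mean of M values (TMM). Several libraries stood apart before any adhesion gene was considered. On the first principal component of all genes tested, which held 48.5% of the variance, GB-IL 1 and GB-IL 2 lay at 134.3 and 106.1 and GB-IL 3 at 20.1, whereas GB-IL 4 lay at -35.4, inside the DIO range of -45.7 to -21.9. RYGB 5 lay at 17.4, above the other 4 RYGB livers. The biological coefficient of variation was 0.543 within GB-IL, 0.244 within DIO and 0.295 within RYGB. GB-IL 1 also carried RNA of tissues other than liver. Its 8 skeletal muscle markers summed to 1268 CPM of the total count, against 0.780 to 3.17 CPM in the other 13 livers. Its 7 exocrine pancreas markers summed to 1256 CPM, against 6.95 to 36.7 CPM elsewhere. Its 8 squamous epithelium markers summed to 415 CPM, GB-IL 2 had 32.5 CPM of them, and GB-IL 3, the next, had 1.08 CPM. The label of liver held in all 14: the 8 hepatocyte markers summed to 86166 to 122704 CPM in GB-IL and 123113 to 141818 CPM in DIO and 120792 to 152420 CPM in RYGB, with Alb the most abundant.

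Levels of the members were compared with each other only per length, as TMM-scaled CPM per kilobase of exon (RPKM). In the marker lists the most abundant gene is named by CPM, without a correction for length. In the DIO livers 3 members stood at 20 RPKM or more. Itgb1, the beta chain shared by most matrix integrins, had a mean of 34.2 RPKM. Itgb5, which pairs with the alpha chain Itgav to bind vitronectin, had 23.8 RPKM. F11r, the junctional adhesion molecule A of tight junctions, had 23.2 RPKM. These 3 are the most abundant adhesion genes of the set per unit of length, and in GB-IL F11r was the next after Itgb1, at 34.6 RPKM against 24.2 RPKM. A further 15 members lay between 1 and 20 RPKM in DIO. They were led by Cdh5, the cadherin of endothelial junctions, at 5.42 RPKM, Itga5, the fibronectin receptor's alpha chain, at 3.45 RPKM, and Pecam1, an endothelial and leukocyte junction protein, at 3.36 RPKM. After them came Itgb2, the beta chain of the leukocyte integrins, at 3.10 RPKM and Vcam1, a counter-receptor for alpha 4 integrins, at 2.29 RPKM. Itga9, a tenascin-binding alpha chain, Itgal, the alpha chain of LFA-1, and Icam1, which LFA-1 and Mac-1 bind, had 2.27, 2.22 and 2.15 RPKM. The remaining 7 of these 15 ran from 1.76 RPKM for the hyaluronan receptor Cd44 to 1.02 RPKM for Itgb3, the beta chain of the platelet fibrinogen receptor. Between them lay Itgav, which binds vitronectin and latent TGF-beta, at 1.74 RPKM, and Icam2, an LFA-1 counter-receptor of resting endothelium, at 1.48 RPKM. Itga7 and Itga3, laminin-binding alpha chains best known from muscle and from epithelia, had 1.37 and 1.29 RPKM. Itgb7, the beta chain of gut-homing lymphocytes, had 1.06 RPKM.

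The lower part of the order held 9 members between 0.1 and 1 RPKM in DIO and 8 below 0.1 RPKM. Among the 9, the collagen-binding alpha chain Itga1 had 0.797 RPKM, the selectin ligand Selplg 0.752 RPKM and Selp, the selectin stored in endothelium and platelets, 0.476 RPKM. Itgam and Itgax, the alpha chains that pair with Itgb2 in macrophages, neutrophils and dendritic cells, had 0.255 and 0.270 RPKM. Itga2b, the platelet fibrinogen receptor's alpha chain, had 0.659 RPKM, and Itga8, a chain of stellate and smooth muscle cells, had 0.479 RPKM. Itga4, which pairs with Itgb1 or Itgb7 on lymphocytes and monocytes, had 0.394 RPKM, and Itga6, which binds laminin with Itgb1 or Itgb4, had 0.163 RPKM. The 8 lowest were Itgae, the alpha chain of lymphocytes that bind E-cadherin, Itgb4, the hemidesmosome beta chain, Itga11, a collagen-binding alpha chain, Itgb8 and Itgb6, beta chains that pair with Itgav and bind latent TGF-beta, Sele, the cytokine-induced endothelial selectin, Madcam1, the mucosal address protein, and Itga2, another collagen-binding alpha chain. Itgae, Itgb4, Itga11 and Itgb8 had 0.0902, 0.0855, 0.0444 and 0.0416 RPKM. Sele, Itgb6, Madcam1 and Itga2 had 0.0247, 0.0118, 0.00788 and 0.00419 RPKM. In all 3 groups Itgb1 was the most abundant member per length, at 35.4 RPKM in GB-IL and 41.4 RPKM in RYGB. The number of members under 0.1 RPKM was 6 in GB-IL and 8 in RYGB. Filtering on low counts left 29 of the 35 in the test: Itga2, Itga11, Itgae, Itgb6, Sele and Madcam1 were too low for it and are given by their counts.

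GB-IL against DIO asks what diverting bile to the ileum, with the duct tied, did to the liver's adhesion genes. Bile duct ligation and biliary stress are settings in which leukocytes enter the liver, and ductular cells carry laminin-binding integrins. In GB-IL bile still drained, through the gallbladder, and the part of either in these livers was not tested. In a piece of whole liver, a difference in the number of cells of a type and one in RNA per cell cannot be told apart. Of the 29 members tested, 28 had a positive log2 fold change and 1, Itga1, a negative one; both counts were the same with RLE and with upper quartile scaling. They were 26 and 3 with the replicate block, 25 and 4 without DIO 3, 26 and 4 without GB-IL 3, and 25 and 5 without GB-IL 4. The median log2 fold change was 0.62, beside 0.04 over all 14252 genes tested, of which 53.1% were positive. At a Benjamini-Hochberg false discovery rate (FDR) of 0.05 in edgeR's quasi-likelihood test, 2 members rose, Icam1 and Itgam, where 3.15% of all genes tested rose. No member fell: the count was 0 in edgeR and 0 in DESeq2, the edgeR exact test and voom. Over all genes tested, 0.112% fell in edgeR and 1.30% in DESeq2, and the exact test and voom had 97 and 79 genes lower. At an unadjusted p below 0.05, 0 members were lower, where 3297 of all 14252 genes passed and 2381 of them were higher. At an unadjusted p below 0.05, 14 members were higher, beside 16.7% of all genes. DESeq2 called 11 members higher (7.77% of all genes), the edgeR exact test 9 (7.24%) and voom with sample quality weights 7 (3.58%). With GB-IL 4 left out, edgeR called 15 of the 30 members then testable higher (15.4% of all genes). The 15 include Itga2, which has 0 or 1 count in each DIO liver and did not pass the filter on all 14 livers; the other 14 are among the 29. With GB-IL 1, GB-IL 2, or both left out edgeR's quasi-likelihood test called 0, with 12, 13 and 9 members higher at an unadjusted p below 0.05, beside 11.6%, 13% and 7.33% of all genes, although DESeq2, the exact test and voom on all livers called those 11, 9 and 7. The same 0 came from leaving out any of the 5 DIO livers, with 13, 14, 12, 12 and 12 members higher at an unadjusted p below 0.05 without DIO 1 to 5. The shares of all genes were 14.7%, 14.3%, 14.8%, 14.9% and 13.6%. In each of these fits edgeR called 0 of all genes as well, where it called 465 on all 14 livers. Fitted to the GB-IL and DIO livers alone, edgeR called 0 members and 0 genes, with 14 members higher at an unadjusted p below 0.05 (13.1% of all genes). With the replicate number as a block it called 0 members and 1 gene, with 13 members higher at that level (12.4% of all genes). With GB-IL 3 left out the count was 2, Icam1 and Itga3 (3.74% of all genes). Groups did not overlap for 2 tested members, F11r and Cd44, with every GB-IL liver above every DIO liver, beside 2.67% of all genes tested.

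**Figure D1:**
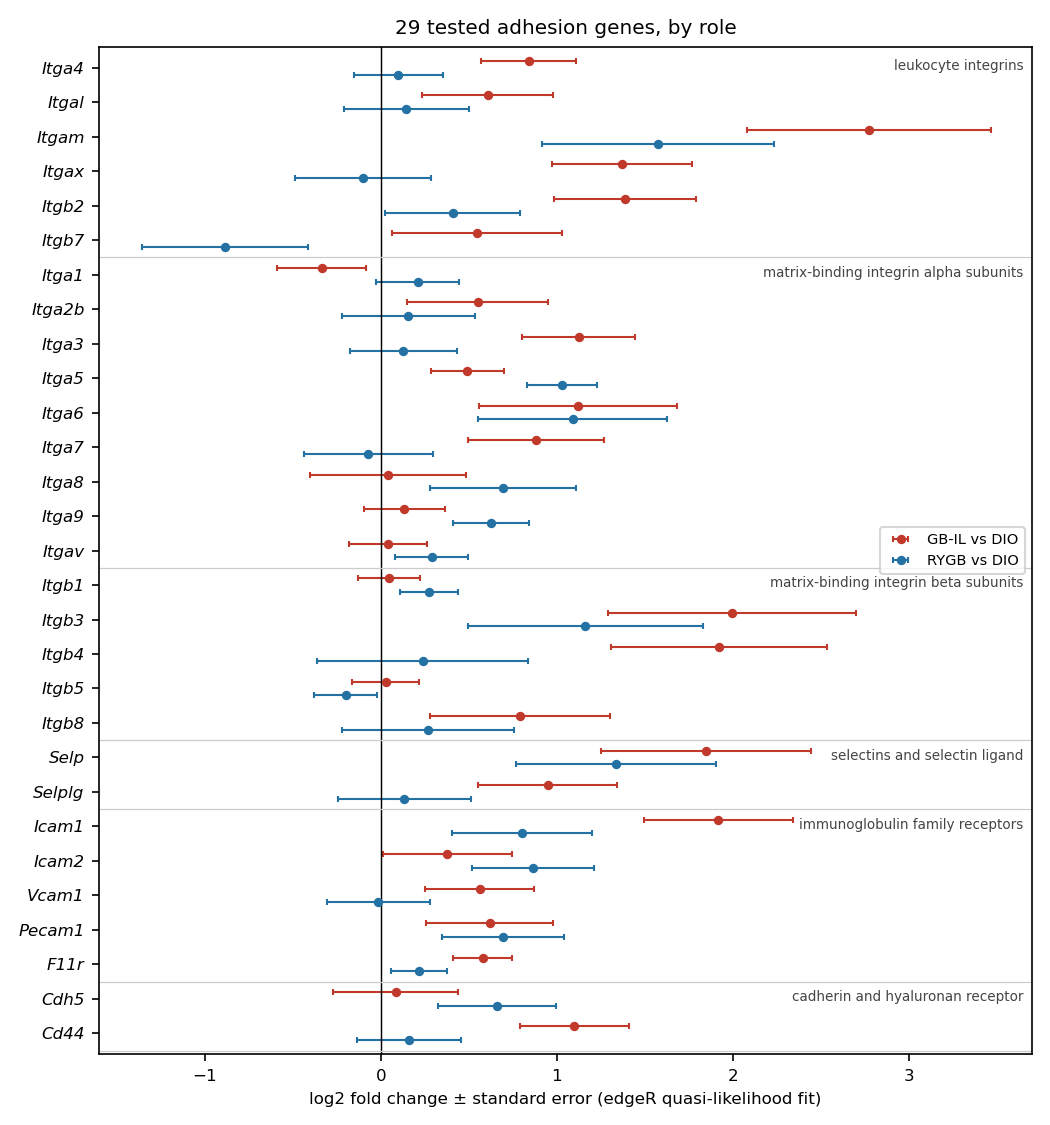
Log2 fold change with its standard error for the 29 tested adhesion genes, ordered by role, in GB-IL against DIO (red) and RYGB against DIO (blue), both against the same 5 DIO livers. In GB-IL 28 of the 29 lie to the right of 0, with a median of 0.62, and in RYGB 24 of the 29, with a median of 0.27.

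Among the leukocyte integrins, 6 of 7 were tested, all 6 had positive log2 fold changes, of which that of Itgb7 turned negative without GB-IL 3, and their median was 1.11. Itgam (ENSMUSG00000030786, chr7:128062640-128118491 on the plus strand of GRCm38) encodes CD11b, the alpha chain of Mac-1 on neutrophils, monocytes and macrophages. Its levels in GB-IL 1 to 4 were 12.1, 7.74, 13.5 and 1.92 CPM. In DIO 1 to 5 they were 1.47, 2.66, 0.763, 0.792 and 0.721 CPM. GB-IL 1, 2 and 3 lay far above all 5 DIO livers, and GB-IL 4 lay within the DIO range. The means were 8.81 ± 5.20 CPM (SD, n = 4) and 1.28 ± 0.8289 CPM (SD, n = 5). Itgam rose by a log2 fold change of 2.77 (SE 0.69, adjusted p 0.0433, edgeR's quasi-likelihood test, Benjamini-Hochberg adjusted). Leaving out GB-IL 4 gave an adjusted p of 0.00549 in the same edgeR test, and DESeq2 on all livers gave 0.00119, the lowest of the alternatives, whose highest was 0.240. The edgeR call was lost in 11 of the 14 omissions. Without GB-IL 1, 2 or 3 the adjusted p by edgeR was 0.116, 0.0840 and 0.0667. Without DIO 1 to 5 in turn it was 0.0878, 0.0716, 0.0999, 0.112 and 0.120 by the edgeR test. Without RYGB 1, 3 or 4, which enter through the shared estimate of spread, edgeR gave 0.0567, 0.0565 and 0.0526. On the 2 groups alone and with the replicate block edgeR gave an adjusted p of 0.0846 and 0.0822. Over the 14 omissions the log2 fold change stayed between 2.49 and 3.22. GENCODE places another gene model on the same strand over 68.7% of the exon bases of Itgam, and that model has no row in the count table, so how its reads were counted is uncertain.

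The partner chain Itgb2 had 20.8, 11.8, 51.8 and 14.6 CPM in GB-IL 1 to 4 and 8.43, 15.6, 9.26, 7.24 and 6.78 CPM in DIO 1 to 5. GB-IL 3 was the highest and GB-IL 2 and 4 lay within the DIO range, which DIO 2 extended upward. Its log2 fold change was 1.39 (SE 0.40), with an adjusted p of 0.0708 by edgeR's quasi-likelihood test (Benjamini-Hochberg) and a range over the alternatives of 0.0164 to 0.170. Without GB-IL 3 the log2 fold change of Itgb2 was 0.73. Itgax, the CD11c chain of dendritic cells and some macrophages, had 5.04, 2.94, 4.28 and 1.25 CPM in GB-IL and 2.09, 1.67, 1.12, 0.792 and 0.817 CPM in DIO. Here again GB-IL 1, 2 and 3 exceeded every DIO liver and GB-IL 4 did not. Its log2 fold change of 1.37 had an adjusted p of 0.0700 in the edgeR quasi-likelihood test, with 0.00584 to 0.510 over the alternatives. Itga4 had a log2 fold change of 0.84. Itgal had 11.7, 9.60, 43.9 and 23.5 CPM in GB-IL and 11.7 to 23.2 CPM in DIO, and its log2 fold change of 0.61 was 0.04 without GB-IL 3. Itgb7 had 11.1 CPM in GB-IL 3 and at most 2.36 CPM in the other 3 GB-IL livers, against 2.16 to 3.82 CPM in DIO. The value for Itgb7 was a log2 fold change of 0.55 (SE 0.48), or -0.56 without GB-IL 3.

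The matrix-binding alpha chains gave 9 tested of 11, with 8 positive log2 fold changes and a median of 0.49. The largest log2 fold change of the 9 was that of Itga3, with 23.5, 24.96, 8.86 and 7.05 CPM in GB-IL and 6.54 to 8.50 CPM in DIO. GB-IL 1 and 2 stood well clear of DIO, GB-IL 3 only just, and GB-IL 4 lay inside its range. The log2 fold change of Itga3 was 1.12, with an adjusted p of 0.0661 by the edgeR quasi-likelihood test and 0.00425 to 0.982 over the alternatives. It passed the FDR without GB-IL 3, at 0.0359, and without GB-IL 4, at 0.00425, by the same edgeR test. Itga6 had a log2 fold change of 1.12 with a standard error of 0.56. Itga7 had 33.04, 26.6, 16.2 and 6.09 CPM in GB-IL, with GB-IL 1 to 3 above every DIO liver and GB-IL 4 below, against 8.53 to 13.1 CPM. The log2 fold change of Itga7 was 0.88, and 0.55 without GB-IL 1. The fibronectin chain Itga5 had 30.7, 21.01, 28.4 and 15.6 CPM in GB-IL and 21.04, 15.4, 15.98, 16.1 and 16.6 CPM in DIO. Its GB-IL livers were spread on both sides of DIO 1, the highest of the controls, and the log2 fold change was 0.49 (SE 0.21, adjusted p 0.178, edgeR's quasi-likelihood test, Benjamini-Hochberg adjusted). Itga2b had a log2 fold change of 0.55, and 0.35 without GB-IL 1. That of Itga8 was 0.04, and -0.78 without GB-IL 4, which had 8.23 CPM where the other 3 had at most 2.76 CPM. Itga9 had one of 0.13, and 0.02 without GB-IL 3. Itgav had one of 0.04, which ran from -0.05 to 0.15 over the omissions. Itga1 was the exception in sign at -0.34, with GB-IL 1 and 2 below all 5 DIO livers at 8.77 and 8.53 CPM. Over the omissions the log2 fold change of Itga1 ran from -0.49 to -0.22.

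Of the 6 matrix-binding beta chains 5 were tested, all with positive log2 fold changes and a median of 0.79, and they split by level. The 2 abundant chains had log2 fold changes near 0. Itgb1 (ENSMUSG00000025809, chr8:128685654-128733200) had 146, 128, 135 and 168 CPM in GB-IL 1 to 4. In DIO 1 to 5 Itgb1 had 164, 161, 114, 125 and 134 CPM. The groups overlapped through most of their range, and the log2 fold change was 0.05 (SE 0.18, adjusted p 0.886, edgeR's quasi-likelihood test, Benjamini-Hochberg adjusted). Itgb5 (ENSMUSG00000022817, chr16:33829665-33949338) had 68.9, 97.4, 98.1 and 79.9 CPM in GB-IL. Its DIO levels were 88.7, 67.9, 113, 81.5 and 71.00 CPM, which enclosed every GB-IL liver. The log2 fold change of Itgb5 was 0.03 (SE 0.19, adjusted p 0.942, edgeR's quasi-likelihood test, Benjamini-Hochberg adjusted), and its sign and that of Itgb1 depended on which liver was left out. The less abundant Itgb3 and Itgb4 had larger and more scattered values. Itgb3 had 35.98, 42.8, 11.7 and 5.39 CPM in GB-IL and 3.64 to 9.11 CPM in DIO, a log2 fold change of 2.00 (SE 0.70). Its adjusted p was 0.121 by the edgeR quasi-likelihood test, with 0.0254 to 0.971 over the alternatives, and leaving out RYGB 5 gave 0.0393. Itgb4 had 4.52, 3.39, 1.02 and 0.295 CPM in GB-IL against 0.385 to 0.736 CPM, with GB-IL 4 below every DIO liver and the other 3 above. Its log2 fold change of 1.92 had an adjusted p of 0.0927 in the edgeR quasi-likelihood test, 0.00614 to 0.995 over the alternatives. For Itgb8 the log2 fold change was 0.79 with a standard error of 0.51.

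The selectin group gave 2 tested of 3. Selp (ENSMUSG00000026580, chr1:164115264-164150026, plus strand) had 20.6, 5.87, 2.37 and 1.62 CPM in GB-IL 1 to 4 and 2.41, 2.46, 2.09, 0.962 and 2.60 CPM in DIO 1 to 5. GB-IL 1 alone was several times above the controls, GB-IL 2 was above them, and GB-IL 3 and 4 lay inside their range. For Selp the log2 fold change was 1.85 (SE 0.60, adjusted p 0.0962, edgeR's quasi-likelihood test, Benjamini-Hochberg adjusted), 0.63 without GB-IL 1 and 2.18 without GB-IL 4. Over the alternatives the adjusted p of Selp ran from 0.0119 to 0.993. Selplg, the ligand that leukocytes present to selectins, had 5.36, 2.94, 13.4 and 3.14 CPM in GB-IL and 2.16 to 4.08 CPM in DIO, with GB-IL 3 the highest. For Selplg the log2 fold change was 0.95, or 0.24 without GB-IL 3, with an adjusted p of 0.174 by the edgeR quasi-likelihood test and 0.0426 to 0.598 over the alternatives.

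Within the immunoglobulin family 5 of 6 were tested, all 5 with positive log2 fold changes and a median of 0.58. Icam1 (ENSMUSG00000037405, chr9:21015985-21028817, plus strand) is made by endothelium, hepatocytes and macrophages under inflammatory signals. Its levels in GB-IL 1 to 4 were 74.6, 24.2, 33.5 and 9.37 CPM. In DIO 1 to 5 they were 8.43, 12.2, 9.41, 7.47 and 9.33 CPM. GB-IL 1 was the highest of all 14 livers, GB-IL 2 and 3 exceeded every DIO liver, and GB-IL 4 sat in the middle of DIO. The means were 35.4 ± 27.97 CPM (SD, n = 4) and 9.36 ± 1.75 CPM (SD, n = 5). Icam1 rose by a log2 fold change of 1.92 (SE 0.42, adjusted p 0.0316, edgeR's quasi-likelihood test, Benjamini-Hochberg adjusted), the smallest adjusted p of the 29 members. Without GB-IL 4 the edgeR adjusted p was 0.000823 and with DESeq2 on all livers 0.000687, while the highest of the alternatives, GB-IL 1 and 2 left out together, gave 0.246. The edgeR call was lost without GB-IL 1 or GB-IL 2, at 0.0980 and 0.0581. It was also lost on leaving out DIO 1 to 5 in turn, at edgeR adjusted p-values of 0.0763, 0.0716, 0.0731, 0.0868 and 0.0959. The same happened on the 2 groups alone and with the replicate block, at 0.10004 and 0.0822 by edgeR. Over the 14 omissions the log2 fold change ran from 1.24 without GB-IL 1 to 2.23 without GB-IL 4. A gene model on the opposite strand covers 11.7% of the exon bases of Icam1, and the strand setting of the counting is not given in the sources used here.

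F11r (ENSMUSG00000038235, chr1:171437535-171464603, plus strand) had 126, 85.3, 89.3 and 67.9 CPM in GB-IL 1 to 4 and 60.03, 64.1, 54.4, 64.6 and 65.4 CPM in DIO 1 to 5. All 4 GB-IL livers were above all 5 DIO livers, but GB-IL 4 by a narrow margin over DIO 5. For F11r the fitted log2 fold change was 0.58 (SE 0.17, adjusted p 0.0736, edgeR's quasi-likelihood test, Benjamini-Hochberg adjusted), which missed the threshold; without GB-IL 1 it was 0.38. DESeq2, the exact test and voom gave 0.0211, 0.0557 and 0.108, and edgeR without GB-IL 4 0.00874, within a range over the alternatives of 0.00874 to 0.582. Vcam1 had 21.01, 27.3, 45.5 and 26.3 CPM in GB-IL against 15.01 to 27.3 CPM in DIO. GB-IL 3 alone stood clear of the controls, since GB-IL 2 was level with DIO 5. Its log2 fold change was 0.56, that of Pecam1 was 0.62 and that of Icam2 0.38, each within 2 standard errors of 0. Without GB-IL 3 that of Vcam1 was 0.29. Pecam1 had 53.3, 21.01, 28.2 and 25.8 CPM in GB-IL, and its log2 fold change was 0.25 without GB-IL 1.

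Cd44 (ENSMUSG00000005087, chr2:102811141-102901665, minus strand) had 20.01, 16.3, 41.2 and 24.4 CPM in GB-IL 1 to 4. In DIO 1 to 5 it had 13.1, 15.1, 15.2, 7.75 and 8.27 CPM. Every GB-IL liver was above every DIO liver, with GB-IL 3 the highest, GB-IL 4 next and GB-IL 2 only just above DIO 3, an order unlike that of Icam1. Cd44 had a log2 fold change of 1.10 (SE 0.31, adjusted p 0.0656, edgeR's quasi-likelihood test, Benjamini-Hochberg adjusted). DESeq2, the exact test and voom put the adjusted p of Cd44 at 0.0189, 0.0179 and 0.0184, and the alternatives together ran from 0.0179 to 0.161. Cdh5 had 26.5, 7.06, 33.9 and 29.03 CPM in GB-IL, with GB-IL 2 the lowest of all 14 livers, and a log2 fold change of 0.08, which ran from -0.13 to 0.37 over the omissions.

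**Figure D2:**
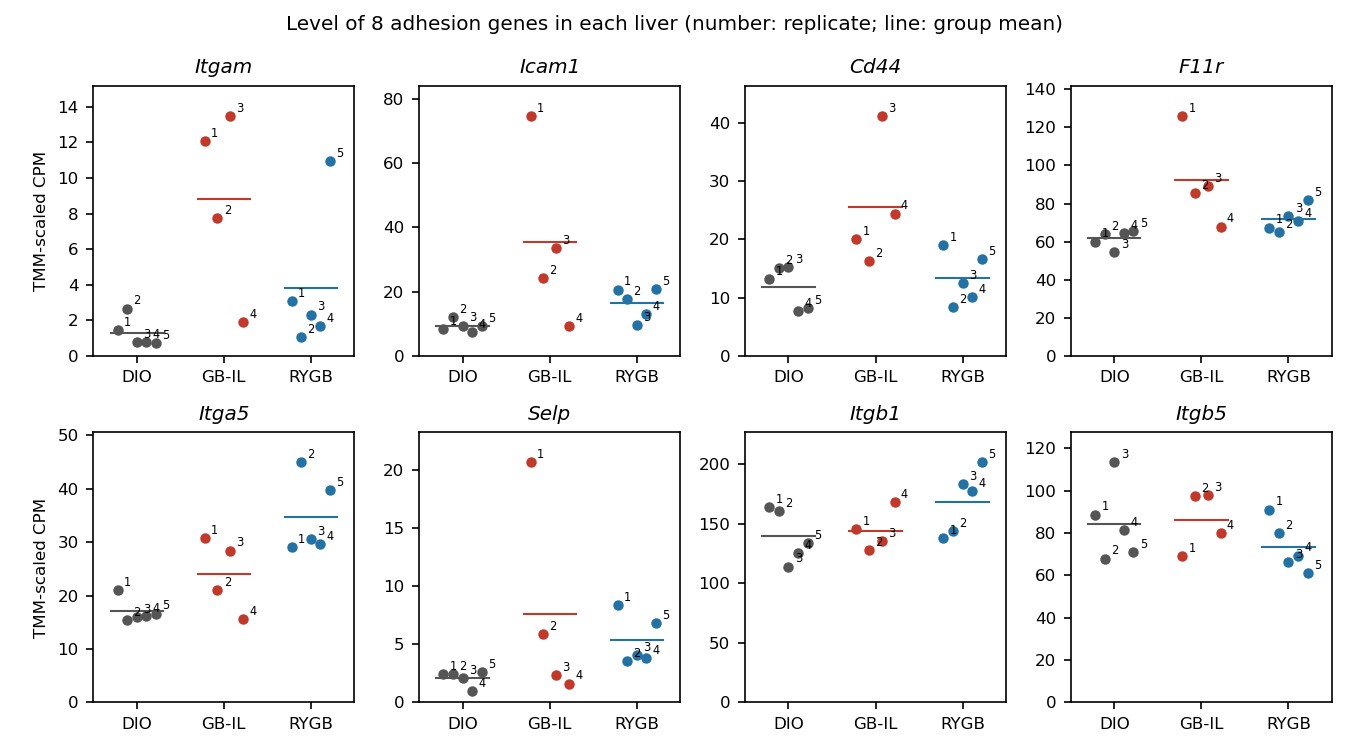
TMM-scaled CPM of 8 adhesion genes in each of the 14 livers, with the group mean as a line and the replicate number beside each point. GB-IL 4 lies with the DIO livers for Itgam, Icam1 and Selp, and all 5 RYGB livers lie above all 5 DIO livers for Itga5.

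Seen by liver, the tested members' median log2 ratio to the DIO mean was 0.86 in GB-IL 1, 0.47 in GB-IL 2, 0.70 in GB-IL 3 and 0.15 in GB-IL 4. The DIO livers themselves ran from -0.23 in DIO 5 to 0.29 in DIO 2, so GB-IL 4 lay within the controls. Of the 35 members, GB-IL 1 was the highest GB-IL liver for 14 and GB-IL 3 for 13, while GB-IL 4 was the lowest for 14.

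Markers of blood and tissue cells moved with these results, and their part in the result was not tested. Sums are CPM of the total count, and the calls are by edgeR on all 14 livers, of which 0 passed without GB-IL 1 or GB-IL 2. Of all genes tested, 3.15% rose by edgeR, and 7.77%, 7.24% and 3.58% by DESeq2, the exact test and voom. At an unadjusted p below 0.05 in edgeR's quasi-likelihood test 16.7% were higher. Neutrophil markers, 10 genes of which 8 were tested, summed to 124, 64.7, 371 and 7.27 CPM in GB-IL 1 to 4 and 9.29, 12.7, 6.88, 6.94 and 5.87 CPM in DIO 1 to 5. By edgeR 6 of the 8 rose (7, 8 and 5 by DESeq2, the exact test and voom), Csf3r was the most abundant in DIO and S100a9 in GB-IL, and Ly6g had no count in any DIO liver. Mmp8 and Ngp had means of only 0.0826 and 0.0899 CPM in DIO, against 3.19 and 21.5 CPM in GB-IL. Such markers passed the count filter through the livers where they were high, so their calls are not independent of the filter. As with Itgam, GB-IL 1, 2 and 3 were high and GB-IL 4 was at the DIO level. The 9 monocyte and recruited macrophage markers summed to 802, 658, 856 and 261 CPM in GB-IL and 150.1, 233, 202, 133 and 123 CPM in DIO, 4 of 9 rose (4, 5 and 7 by those tools), and Lyz2 was the most abundant in both groups. The 9 Kupffer cell markers summed to 675, 1118, 2015 and 899 CPM in GB-IL and 503, 647, 781, 496 and 432 CPM in DIO, 3 of 9 rose (4 by each of those tools), and the most abundant was Clec4f in DIO and Cd5l in GB-IL. Those called by edgeR were Marco, C1qb and C1qc, and all 9 log2 fold changes were positive. Clec4f had means of 156 CPM in DIO and 151 CPM in GB-IL. For Clec4f, Timd4 and Vsig4 edgeR's quasi-likelihood test gave adjusted p-values of 0.998, 0.538 and 0.171. The order of the GB-IL livers differed between these lists: GB-IL 3 led all 3, but GB-IL 1 was the lowest of its group for Kupffer cell markers. Cholangiocyte and gallbladder markers, 8 genes with 6 tested, summed to 40.9, 51.1, 14.8 and 18.6 CPM in GB-IL and 11.7, 9.58, 17.4, 11.3 and 12.7 CPM in DIO, 3 of 6 rose (4, 4 and 1 by those tools), and Krt23 was the most abundant in DIO and Krt19 in GB-IL. GB-IL 1 and 2, the livers high in Itga3 and Itgb3, were the high ones here and for squamous markers. The 8 platelet and megakaryocyte markers summed to 11.3, 10.97, 6.19 and 1.03 CPM in GB-IL and 3.23, 2.45, 2.52, 2.71 and 1.44 CPM in DIO, led by Gp1ba in DIO and Pf4 in GB-IL. Of the 3 platelet markers tested 0 were called by edgeR's quasi-likelihood test, 1 had an unadjusted p below 0.05, and DESeq2, the exact test and voom called 1, 1 and 0.

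Other lists moved less or had their highest sum in GB-IL 1. Squamous markers summed to 415, 32.5, 1.08 and 0.306 CPM in GB-IL 1 to 4, against at most 0.198 CPM in DIO. The 10 vascular endothelial markers summed to 261, 152, 126 and 157 CPM in GB-IL and 151 to 181 CPM in DIO, with Plvap the most abundant. The 7 sinusoidal endothelial markers summed to 230.2, 212, 267 and 268 CPM in GB-IL and 235 to 309.6 CPM in DIO, with Dnase1l3 the most abundant in DIO and Clec4g in GB-IL. Neither list had a gene called by edgeR, DESeq2, the exact test or voom (0 in each), with 0 vascular markers and 1 sinusoidal marker, lower, at an unadjusted p below 0.05 in edgeR's quasi-likelihood test. The 8 stellate cell markers, led by Dcn, summed to 799, 288, 171 and 299 CPM in GB-IL and 210.0 to 328 CPM in DIO, and 1 of 8, Des, was called higher by edgeR. DESeq2 called 1 of the 8 but not Des, the exact test called 2 with Des, and voom called 0. Des is also in the smooth muscle list, where it was the 1 called of 6 tested and the most abundant gene in GB-IL, with Tagln ahead in DIO, and that list of 7 summed to 281, 23.6, 25.02 and 35.1 CPM in GB-IL and 16.04 to 38.8 CPM in DIO. Of the skeletal muscle markers, led by Mylpf in DIO and Acta1 in GB-IL, 1 was tested, Mylpf, and called higher by both edgeR tests and not by DESeq2 or voom. Of the pancreas markers, led by Cela1 in DIO and Ctrb1 in GB-IL, 1 was tested, Cela1 at 22.7 CPM in DIO. For it 0 were called by edgeR, DESeq2, the exact test or voom. At an unadjusted p below 0.05 there were 0 in edgeR's quasi-likelihood test, while voom had Cela1 lower. No squamous marker had enough counts for the test, Krt4 was the most abundant, and Krt5, Krt6a and Dsg3 had no count in any DIO liver. The T and NK cell list of 10 (7 tested, led by Cd4 in DIO and Nkg7 in GB-IL) and the B cell list of 7 (5 tested, led by Cd22) had 0 called by edgeR's quasi-likelihood test, by DESeq2, by the exact test and by voom. In the quasi-likelihood test 0 had an unadjusted p below 0.05, while DESeq2 had 1 B cell marker lower and voom 1 higher at that level. They summed to 1.23, 4.37, 14.9 and 5.01 CPM and to 2.89, 2.34, 9.51 and 6.81 CPM in GB-IL 1 to 4, against 5.14 to 8.38 and 2.10 to 18.3 CPM in DIO. The dendritic cell list of 7, with 6 tested and Zbtb46 the most abundant, summed to 9.62 to 13.7 CPM in GB-IL and 8.46 to 13.6 CPM in DIO. It had 0 called by the edgeR quasi-likelihood test, 1 at an unadjusted p below 0.05, and 0, 0 and 1 called by DESeq2, the exact test and voom. Hepatocyte markers had 0 of 8 called by edgeR's quasi-likelihood test, 1 higher and 1 lower at an unadjusted p below 0.05, 2 called by DESeq2, 2 by the exact test and 1 by voom. RNA without a poly(A) tail, a list of 9 genes with 8 in the table and 4 tested, led by Hist1h2bc in DIO and Hist1h1c in GB-IL, summed to 211, 165, 127 and 123 CPM in GB-IL and 124 to 194 CPM in DIO. It had 0 called by edgeR's quasi-likelihood test, 1 at an unadjusted p below 0.05, and 1, 1 and 0 called by DESeq2, the exact test and voom.

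**Figure D3:**
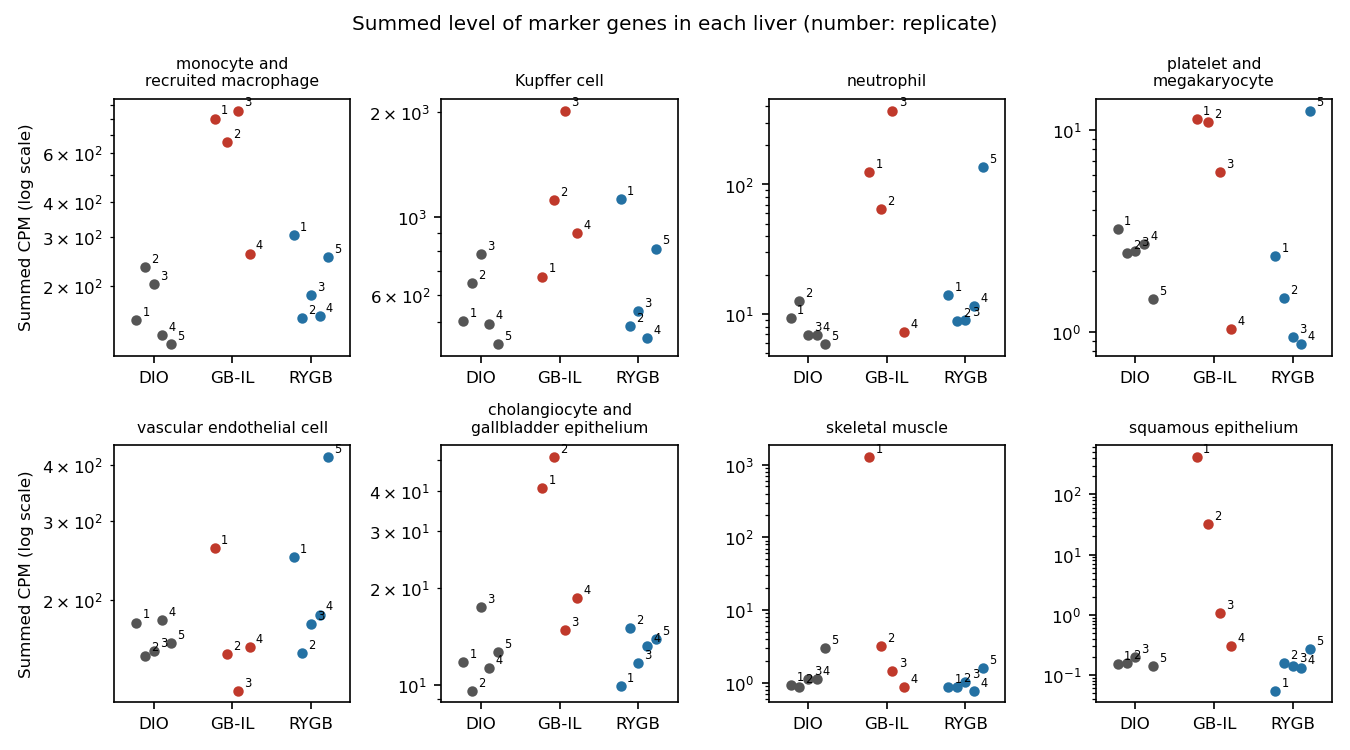
Summed CPM of the total count for 8 marker lists in each liver, on a log scale, with the replicate number beside each point. Neutrophil markers are high in GB-IL 1, 2 and 3 and in RYGB 5, and skeletal muscle markers in GB-IL 1; DIO 4, with 0 CPM of squamous markers, is not drawn there.

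The genes that work with these receptors were followed in 5 lists. The calls below for GB-IL are among the 465 of the whole table, of which 0 passed in edgeR without GB-IL 1 or GB-IL 2, and 3.15% of all genes tested rose. Integrin activation and adaptor genes link the integrin tail to actin, and 2 of 29 tested rose in GB-IL, with a median log2 fold change of 0.18. Flna, the filamin that holds integrins inactive and crosslinks actin, rose by a log2 fold change of 1.09 (adjusted p 0.0287, edgeR's quasi-likelihood test) and Skap2, an adaptor of myeloid integrins, by 0.57 (adjusted p 0.0461). Fermt3, the kindlin of blood cells, had 1.35 at an adjusted p of 0.0528 by the edgeR quasi-likelihood test. DESeq2, the exact test and voom called 4, 4 and 6 of these adaptor genes higher, Flna and Skap2 in each. Of 19 integrin signalling kinases and partners, 1 rose, and the median was 0.65. Syk, a kinase downstream of leukocyte integrins, rose by 1.23 (adjusted p 0.0343, edgeR's quasi-likelihood test), and Fgr, a kinase of myeloid cells, had 1.41 at an adjusted p of 0.0511 by edgeR. DESeq2, the exact test and voom called 6, 6 and 7 kinases higher, Syk in each. Of 27 matrix ligands 4 rose, with a median of 0.85. Spp1, the osteopontin that several integrins bind, rose by a log2 fold change of 2.36 (adjusted p 0.0278, edgeR's quasi-likelihood test), the matrix protein Thbs1 by 2.97 (adjusted p 0.0391) and Mfge8, a bridge between Itgav integrins and dying cells, by 2.04 (adjusted p 0.0398). The fourth was Fgb, a chain of fibrinogen. DESeq2 called 7 ligands higher without Thbs1 and 1 lower (1.30% of all genes were lower), the exact test called 8 higher, and voom called 2, Spp1 and Thbs1. Of the 25 other adhesion receptors tested 3 rose, with a median of 0.59. These were the sialomucin Cd34 at 2.47 (adjusted p 0.0278, edgeR's quasi-likelihood test), the myeloid receptor Sirpa at 1.51 (adjusted p 0.0320) and the nectin-like receptor Pvr at 1.52 (adjusted p 0.0436). DESeq2 and the exact test each called 6 of this list higher, and voom called 4 without Pvr. Of 8 genes that build selectin ligand sugars 0 were called by edgeR's quasi-likelihood test, 1 had an unadjusted p below 0.05, DESeq2, the exact test and voom called 0, 0 and 1, and the median was 0.04. In that list Gcnt1, which branches the sugar, had a log2 fold change of 0.92, the sialyltransferase St3gal3 -0.37 and the sulfotransferase Chst2 0.60. Stab2, Lyve1, Vwf and Cd2 are each in 1 of these lists and in a marker list as well.

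RYGB against DIO asks the same of gastric bypass, against the same 5 DIO livers as the GB-IL comparison, so their values are set side by side and not correlated. Bypass joins a small stomach pouch to the middle of the small intestine and bile still enters at the duodenum, which food then bypasses. Of the 29 members tested, 24 had a positive log2 fold change and 5 a negative one, or 25 and 4 with upper quartile scaling. Over all genes tested 51.5% were positive. The median of the members was 0.27, beside 0.01 over all genes tested. Without RYGB 5 the counts were 22 and 7 and the median 0.17; over all omissions the median ran up to 0.38. The edgeR quasi-likelihood test called 0 members, and 0% of all genes tested were called higher. At an unadjusted p below 0.05 it gave 5 members, all higher: Itga5, Itga9, Itgam, Icam2 and Selp, where 5.35% of all genes were higher. DESeq2 and the edgeR exact test each called 1 member, Itga5 (0.449% and 0.182% of all genes), and voom called 4, Itga5, Itga8, Itga9 and Selp (6.08%). Each RYGB liver lay above each DIO liver for 2 of the tested members, Itga5 and Selp, beside 1.87% of all genes tested. By role, the medians were 0.12 for leukocyte integrins, 0.29 for matrix-binding alpha chains, 0.27 for beta chains, 0.73 for selectins with their ligand, 0.69 for the immunoglobulin family and 0.41 for the cadherin with Cd44.

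Itga5 (ENSMUSG00000000555, chr15:103344286-103366763, minus strand) forms the main fibronectin receptor with Itgb1. In RYGB 1 to 5 it had 29.04, 44.9, 30.6, 29.6 and 39.7 CPM, and in DIO 1 to 5 21.04, 15.4, 15.98, 16.1 and 16.6 CPM. The lowest RYGB liver was well above DIO 1, the highest control, and the other 4 controls were close together. The means were 34.8 ± 7.13 CPM (SD, n = 5) and 17.03 ± 2.29 CPM (SD, n = 5). Itga5 had a log2 fold change of 1.03 (SE 0.20, unadjusted p 0.000107, adjusted p 0.218, edgeR's quasi-likelihood test, Benjamini-Hochberg adjusted), the smallest adjusted p of the members here. DESeq2, the exact test and voom gave adjusted p-values of 0.00299, 0.00541 and 0.00401, and edgeR on the RYGB and DIO livers alone 0.0244. Leaving out 1 liver at a time gave 0.0581 to 0.735 by the edgeR test, with log2 fold changes of 0.92 to 1.12. Its partner Itgb1 had 138, 144, 183, 177 and 202 CPM in RYGB, 3 of the 5 livers above every control. The log2 fold change of Itgb1 was 0.27 (SE 0.17, adjusted p 0.672, edgeR's quasi-likelihood test, Benjamini-Hochberg adjusted). Itgb5 had 91.04, 80.1, 66.2, 69.4 and 61.2 CPM, a log2 fold change of -0.20 (SE 0.18, adjusted p 0.783, edgeR's quasi-likelihood test, Benjamini-Hochberg adjusted), or -0.07 without DIO 3.

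Selp had 8.37, 3.55, 4.05, 3.85 and 6.85 CPM in RYGB 1 to 5, each above the DIO maximum of 2.60 CPM. RYGB 1 and 5 were the high livers and the other 3 were close to one another. Selp had a log2 fold change of 1.34 (SE 0.57, adjusted p 0.547, edgeR's quasi-likelihood test, Benjamini-Hochberg adjusted), and the range over the alternatives was 0.0348 to 0.978. Gene models on the opposite strand cover 14.1% of the exon bases of Selp. Icam1 had 20.6, 17.6, 9.72, 12.9 and 20.8 CPM in RYGB, with 4 of 5 livers above every control and RYGB 3 within their range. Its log2 fold change was 0.80 (SE 0.40, adjusted p 0.593, edgeR's quasi-likelihood test, Benjamini-Hochberg adjusted). F11r had 67.4, 65.1, 73.2, 70.9 and 82.01 CPM, 4 of 5 above every control, and a log2 fold change of 0.22 (SE 0.16, adjusted p 0.729, edgeR's quasi-likelihood test, Benjamini-Hochberg adjusted). Cd44 had 19.03, 8.43, 12.5, 10.1 and 16.6 CPM, which overlapped DIO, and a log2 fold change of 0.16 (SE 0.30, adjusted p 0.910, edgeR's quasi-likelihood test, Benjamini-Hochberg adjusted), or 0.00 without RYGB 1.

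RYGB 5 held the highest RYGB value for 18 of the 35 members, and its median log2 ratio to the DIO mean was 0.76, where the other 4 RYGB livers ran from -0.02 to 0.21. Itgam had 3.06, 1.04, 2.32, 1.65 and 10.97 CPM in RYGB 1 to 5. RYGB 5 alone was near the high GB-IL livers, and without it the log2 fold change of 1.58 (SE 0.66, adjusted p 0.547, edgeR's quasi-likelihood test, Benjamini-Hochberg adjusted) came to 0.66. Itgb3 had 43.8 CPM in RYGB 5 and 4.51 to 6.67 CPM in the other 4, and its log2 fold change went from 1.16 to -0.05 without RYGB 5. Itga6 had 8.93 CPM in RYGB 5 and 1.28 to 2.03 CPM elsewhere, with log2 fold changes of 1.09 and, without RYGB 5, 0.18. The endothelial genes Pecam1, Cdh5 and Icam2 were high in RYGB 1 and 5. Pecam1 had 46.9, 15.1, 23.7, 23.04 and 60.3 CPM. For Cdh5 the levels were 39.6, 21.5, 29.5, 31.1 and 57.9 CPM, and for Icam2 they were 9.35, 2.86, 2.96, 3.06 and 7.51 CPM. Itga9 had 30.2, 17.2, 22.04, 24.2 and 40.8 CPM, again with RYGB 5 and RYGB 1 highest, and a log2 fold change of 0.63 (SE 0.22). Markers moved alongside: in RYGB 1 to 5 the neutrophil list summed to 13.99, 8.86, 9.04, 11.5 and 136 CPM, the vascular endothelial list to 249, 153, 177, 186 and 416 CPM and the platelet list to 2.36, 1.47, 0.942, 0.866 and 12.5 CPM. Monocyte and Kupffer cell markers summed to 304, 153, 185, 156 and 254 and to 1127, 488, 537, 450.4 and 812 CPM, highest in RYGB 1. Stellate cell markers summed to 296, 344, 314, 357 and 509 CPM, against 210.0 to 328 CPM in DIO, and all 8 had positive log2 fold changes, with a median of 0.38. Sinusoidal endothelial markers summed to 303, 207, 267, 299 and 592 CPM, against 235 to 309.6 CPM in DIO. The edgeR quasi-likelihood test called 0 markers of any list in RYGB against DIO. At an unadjusted p below 0.05 it had 3 neutrophil markers and 1 each of the Kupffer, sinusoidal, vascular and stellate lists higher, and 1 cholangiocyte marker lower. Of all genes tested, 5.35% were higher and 3.36% lower at that level. Of the 4 tested genes of RNA without a poly(A) tail, 1 was lower at that level by edgeR, DESeq2 and the exact test, and 2 by voom. That list summed to 117 to 138 CPM in RYGB and 124 to 194 CPM in DIO, with a median log2 fold change of -0.43. DESeq2, the exact test and voom called 1, 0 and 2 stellate markers higher and 1, 1 and 1 cholangiocyte markers lower. Voom also called 1 monocyte marker higher and 1 platelet and 1 hepatocyte marker lower. Of all genes tested, voom called 6.08% higher and 5.77% lower, and DESeq2 called 0.449% higher. The part of these cells in the result was not tested. Itgb7 went the other way from most members, with 2.52, 1.53, 1.16, 1.49 and 1.25 CPM in RYGB and 4 of 5 livers below every DIO liver; its log2 fold change was -0.89 (SE 0.47, adjusted p 0.613, edgeR's quasi-likelihood test, Benjamini-Hochberg adjusted).

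In the 5 partner lists the edgeR quasi-likelihood test called 0 genes in RYGB. The counts higher at an unadjusted p below 0.05 were 3 of 29 for activation and adaptor genes, 0 of 19 for kinases, 5 of 27 for matrix ligands, 6 of 25 for other adhesion receptors and 0 of 8 for selectin ligand sugars, beside 5.35% of all genes tested. At that level 1 sugar gene and no gene of the other lists was lower, beside 3.36% of all genes. DESeq2 and the exact test each called 1 gene over the 5 lists, higher: Cdh1, the E-cadherin that Itgae binds. Voom called 2 adaptor genes, 0 kinases, 4 matrix ligands, among them the fibronectin gene Fn1 that Itga5 binds, 3 other receptors and 0 sugar genes higher (6.08% of all genes). It called 1 adaptor gene and 1 sugar gene lower (5.77% of all genes). The median log2 fold changes were 0.09, 0.14, 0.46, 0.28 and -0.05.

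GB-IL against RYGB asks whether the livers of the 2 operated groups differ from each other. Both groups had an operation, of different kinds. Of the 29 members tested 20 were positive and 9 negative, counts that RLE and upper quartile scaling left as they were. Over all genes tested 52.5% were positive. The median log2 fold change of the members was 0.51, beside 0.03 over all genes tested. The counts were 18 and 11 without GB-IL 1, 22 and 8 without GB-IL 4, and 15 and 15 without GB-IL 1 and 2. The median was 0.0039 with GB-IL 1 and 2 left out together, and 0.33 to 0.67 over the single omissions. The edgeR quasi-likelihood test called 0 members, and 0% of all genes tested were called higher. At an unadjusted p below 0.05 it gave 9 members higher (15.3% of all genes) and 3 lower, Itga1, Itga5 and Itga9 (6.77%). DESeq2 and the edgeR exact test each called 1, Itgax (4.59% and 3.99%), and voom called 0 (0.779%). Without GB-IL 4, edgeR called 8 higher (13.4% of all genes): F11r, Icam1, Itga3, Itga4, Itga7, Itgax, Itgb4 and Itgb7; it also called 1 lower, Itga8 (8.09%). No tested member had groups that did not overlap. The share of all genes without overlap was not counted for this comparison, so that absence is not read as a result about the members. By role, the medians were 1.09 for leukocyte integrins, -0.25 for alpha chains of matrix integrins, 0.52 for their beta chains, 0.66 for selectins and ligand, 0.36 for the immunoglobulin family and 0.18 for Cdh5 and Cd44.

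The smallest adjusted p among the members belonged to Itgax, which had 5.04, 2.94, 4.28 and 1.25 CPM in GB-IL and 1.42, 1.09, 1.20, 1.57 and 0.796 CPM in RYGB. GB-IL 1, 2 and 3 were above every RYGB liver, RYGB 5 included, which was the lowest. The log2 fold change was 1.47 (SE 0.40, adjusted p 0.0936, edgeR's quasi-likelihood test, Benjamini-Hochberg adjusted), with 0.00733 to 0.406 over the alternatives. RYGB 5, which had Itgam at 10.97 CPM, had little Itgax, whereas GB-IL 1, 2 and 3 had both. Itgam itself had a log2 fold change of 1.20 (SE 0.65, adjusted p 0.287, edgeR's quasi-likelihood test, Benjamini-Hochberg adjusted), and 2.11 without RYGB 5. For Icam1 it was 1.12 (SE 0.42, adjusted p 0.158, same edgeR test), or 0.44 without GB-IL 1. For Cd44 it was 0.94 (SE 0.31, adjusted p 0.130, same edgeR test), or 0.61 without GB-IL 3. F11r had 0.36 (SE 0.17, adjusted p 0.227, edgeR's quasi-likelihood test), or 0.16 without GB-IL 1. Itga5 was on the other side at -0.54 (SE 0.21, adjusted p 0.166, edgeR's quasi-likelihood test), with 3 of the 4 GB-IL livers below every RYGB liver. Itgb1 had -0.23 (SE 0.18, adjusted p 0.440) and Itgb5 0.23 (SE 0.19, adjusted p 0.466) by edgeR's quasi-likelihood test, the latter 0.15 without GB-IL 2. Selp had 0.51 (SE 0.58, adjusted p 0.593, edgeR's quasi-likelihood test) and ran from -0.71 without GB-IL 1 to 0.84 without GB-IL 4, so its direction rested on single livers.

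Among the marker lists the edgeR quasi-likelihood test called 0 genes between GB-IL and RYGB. With an unadjusted p below 0.05 it had 7 of 8 neutrophil, 6 of 9 monocyte, 3 of 9 Kupffer and 5 of 6 cholangiocyte markers higher in GB-IL. It also had 1 stellate, 1 hepatocyte, 1 platelet, 1 skeletal muscle and 2 smooth muscle markers higher, and 4 stellate, 2 sinusoidal and 1 vascular marker lower. Of all genes tested, 15.3% were higher and 6.77% lower at that level. Of the 4 tested genes of RNA without a poly(A) tail, 2 were higher at that level by edgeR, DESeq2 and the exact test, and 1 by voom. DESeq2 and the exact test each called 1 neutrophil, 4 monocyte, 3 Kupffer, 4 cholangiocyte and 1 hepatocyte marker higher and 3 stellate markers lower. The exact test added Des and Mylpf as higher, and voom called 3 monocyte markers higher and 1 stellate marker lower. Of all genes tested, DESeq2, the exact test and voom called 4.59%, 3.99% and 0.779% higher. DESeq2 and the exact test called 1.34% and 0.793% lower. The part of the marker cells in the result was not tested.

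The same 5 partner lists had 0 genes called by edgeR's quasi-likelihood test between GB-IL and RYGB. At an unadjusted p below 0.05, in the order used above, 7 of 29, 8 of 19, 7 of 27, 5 of 25 and 1 of 8 were higher in GB-IL, beside 15.3% of all genes tested, and 2, 3, 4, 2 and 0 were lower, beside 6.77%. Among the kinases DESeq2 and the exact test each called 3 higher and voom called 5 higher. For adaptor genes DESeq2, the exact test and voom called 0, 0 and 1 higher. They called 1, 1 and 1 matrix ligands higher, 3, 3 and 1 other receptors higher, and 1, 0 and 0 sugar genes higher, where 4.59%, 3.99% and 0.779% of all genes were. Lower were 2, 2 and 0 matrix ligands and no gene of the other lists, beside 1.34% of all genes in DESeq2 and 0.793% in the exact test. The medians were 0.18, 0.65, 0.20, 0.28 and -0.03.

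The 6 members below the filter were read from their counts summed over a group, as ratios relative to the TMM-scaled totals with exact 95% intervals that cover counting error only. Itga2 had 0.578, 0.565, 0.0848 and 0.184 CPM in GB-IL 1 to 4 and 0.0523, 0.0492, 0, 0 and 0.0481 CPM in DIO 1 to 5. These were 28 counts in GB-IL and 3 in DIO, a ratio of 10.4 (3.22 to 53.5). Every GB-IL liver exceeded every DIO liver, as was so for 2.67% of the genes tested, which do not include Itga2. The exact two-sided permutation p of 0.0159 is the smallest that 4 livers against 5 allow, and it is not adjusted for the 18 such tests. In RYGB, 18 of the 23 counts of Itga2 came from RYGB 5, with an exact permutation p against DIO of 0.127. Sele had 28 counts in GB-IL, 18 of them in GB-IL 1, and 7 in DIO, a ratio of 4.46 (1.91 to 12.1; exact permutation p 0.0635). RYGB had 18 counts of Sele (exact permutation p 0.421). Itgae had 25 counts in GB-IL, 40 in DIO and 26 in RYGB, and its RYGB ratio to DIO was 0.528 (0.310 to 0.887; exact permutation p 0.0397, not adjusted for the 18 such tests). Itgb6 had 18, 8 and 11 counts in GB-IL, DIO and RYGB and a GB-IL ratio to DIO of 2.51 (1.04 to 6.67; exact permutation p 0.143). Itga11 had 18, 22 and 24 counts, with a GB-IL ratio to DIO of 0.913 (0.462 to 1.78), and 10 of its 18 GB-IL counts came from GB-IL 4. Madcam1 had 1, 1 and 2 counts, and a difference was not detectable at this depth.

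The 35 genes lie on 13 chromosomes, with 7 on chromosome 11 and 6 on chromosome 2. Some are close neighbours. Itgam and Itgax lie 11.1 kb apart on chromosome 7, with Itgal 728 kb from Itgam. Sele and Selp lie 57.6 kb apart on chromosome 1, and Itga1 and Itga2 20.995 kb apart on chromosome 13. In GB-IL against DIO the log2 fold changes of the pair Itgam and Itgax were 2.77 and 1.37, and in RYGB against DIO 1.58 and -0.10. The sign of Itgax in RYGB depended on which liver was left out, with values from -0.23 to 0.14. Other members with exon bases under another gene model were Itga4 at 8.04%, Itgb4 at 7.66%, Itgav at 5.90%, Itga8 at 5.05%, Itga1 at 3.68%, Vcam1 at 0.688% and Itga7 at 0.111%.

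Promoter sequences were read from RefSeq on GRCm38.p6, from 250 bases before to 50 after the start, and 23 of the 35 members matched, with 25 promoters. Letters of the NF-kB type, GGG and CC with any 5 bases between them, on either strand, were present in 15 of the 25 (60%), beside 50.8% of all 32851 promoters. Letters of the PU.1 type, GAGGAAG on either strand, were present in 7 of the 25 (28%), beside 13.6% of all. A match describes the letters in the window and nothing more. The 6 promoters shown belong to the tested members whose GB-IL or RYGB livers were all above DIO or that passed the test, so that their start regions can be read side by side; capitals mark either motif on either strand. They are Icam1 at chr9:21015690-21015989, Itgam at chr7:128062390-128062689, F11r at chr1:171437311-171437610, Selp at chr1:164115014-164115313 (all 4 plus strand), Cd44 at chr2:102901616-102901915 and Itga5 at chr15:103366742-103367041 (both minus strand). Icam1, F11r and Selp hold only the first motif, Itgam and Cd44 hold both, and neither is in the Itga5 window.
Icam1: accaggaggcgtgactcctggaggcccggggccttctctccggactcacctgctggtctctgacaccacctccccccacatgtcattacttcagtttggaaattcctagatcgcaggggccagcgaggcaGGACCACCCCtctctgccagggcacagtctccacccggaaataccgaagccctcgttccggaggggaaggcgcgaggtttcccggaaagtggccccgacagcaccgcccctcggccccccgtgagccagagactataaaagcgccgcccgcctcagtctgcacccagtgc
Itgam: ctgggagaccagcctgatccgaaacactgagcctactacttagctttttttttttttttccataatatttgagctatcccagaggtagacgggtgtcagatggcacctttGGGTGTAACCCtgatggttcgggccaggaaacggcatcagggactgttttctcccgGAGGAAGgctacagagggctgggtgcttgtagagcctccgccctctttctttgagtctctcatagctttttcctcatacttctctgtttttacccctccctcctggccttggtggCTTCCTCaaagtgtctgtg
F11r: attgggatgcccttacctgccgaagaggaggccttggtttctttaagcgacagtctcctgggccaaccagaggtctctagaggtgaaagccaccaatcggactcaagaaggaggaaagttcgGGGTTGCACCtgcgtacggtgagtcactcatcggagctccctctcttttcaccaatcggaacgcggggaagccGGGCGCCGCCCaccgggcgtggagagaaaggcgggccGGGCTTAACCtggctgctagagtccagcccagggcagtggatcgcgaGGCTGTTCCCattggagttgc
Selp: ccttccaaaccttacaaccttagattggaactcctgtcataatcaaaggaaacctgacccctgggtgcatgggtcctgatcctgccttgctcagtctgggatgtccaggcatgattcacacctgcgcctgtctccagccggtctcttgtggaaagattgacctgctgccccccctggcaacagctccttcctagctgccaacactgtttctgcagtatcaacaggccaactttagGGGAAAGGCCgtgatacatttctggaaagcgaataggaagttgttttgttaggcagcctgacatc
Cd44: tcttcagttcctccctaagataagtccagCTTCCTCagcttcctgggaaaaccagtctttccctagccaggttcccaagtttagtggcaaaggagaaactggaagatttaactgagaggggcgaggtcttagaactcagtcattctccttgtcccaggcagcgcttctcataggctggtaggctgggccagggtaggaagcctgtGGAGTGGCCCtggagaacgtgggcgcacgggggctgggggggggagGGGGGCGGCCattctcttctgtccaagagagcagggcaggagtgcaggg
Itga5: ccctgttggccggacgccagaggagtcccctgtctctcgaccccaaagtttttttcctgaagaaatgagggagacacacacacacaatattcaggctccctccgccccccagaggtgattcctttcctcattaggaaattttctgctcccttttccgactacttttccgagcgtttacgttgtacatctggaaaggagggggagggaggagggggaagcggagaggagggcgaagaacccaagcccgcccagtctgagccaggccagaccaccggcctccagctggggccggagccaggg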

How the data were processed

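The authors amplified the RNA with an Ovation kit, made TruSeq libraries, sequenced them on a HiSeq, aligned reads with TopHat 2 to mm10 with HTSeq for the gene counts; the sources used here name no version, annotation or strand setting. The deposited count table was used as it is. Genes with enough counts (edgeR's filterByExpr by group; 14252 of 25212) were scaled by TMM and fitted over all 14 livers with edgeR 4.0.16 in R 4.3.3, a mean per group, the quasi-likelihood test and Benjamini-Hochberg adjustment over all 14252 at an FDR of 0.05. Alternatives used RLE and upper quartile scaling, DESeq2 1.42.0, edgeR's exact test, voom in limma 3.58.1, no filter, a mean of at least 50 counts, 2 groups alone, a replicate block and each liver left out. Leaving out GB-IL livers 1 and 2 together was chosen after seeing the data. RPKM used exon lengths of GENCODE M21, where 24701 of the 25212 identifiers matched. Per-liver values and full tests are given for each member past the FDR, each whose groups did not overlap in a comparison with DIO, and the 3 most abundant per length; Itga2, below the filter, has a permutation test. Of each partner list up to 3 genes with the smallest p are named, and of each marker list the most abundant in DIO and GB-IL; Fgb, Cdh1 and Fn1, and the per-liver values of other members, were added after seeing the data. Lists covered hepatocyte, Kupffer, monocyte, neutrophil, T and NK, B, dendritic, platelet, sinusoidal, vascular, stellate, cholangiocyte, squamous, skeletal muscle, smooth muscle, pancreas and poly(A)-less RNA genes. The members and lists were chosen with earlier results of these data known. The fitting script was tested on counts simulated with the spread of the DIO livers. That spread is below the one within GB-IL, so the test does not speak for the GB-IL calls. Python 3.11.15 was used for the rest.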

Additional observations from a re-analysis of the deposited data

Results flagged for a closer look

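Within each group of 4 or 5 livers, a value was set apart when the highest or lowest liver's gap to its nearest neighbour took up most of the group's range (Dixon's ratio above its 95% critical value). Of 105 groups of member values 15 had such a liver, and of 51 groups of marker list sums 10 did. Chance sets apart about 1 in 20 groups of normally distributed values. These CPM were not transformed or checked for that, so the counts are not read as an excess over chance. Of the 15, 3 are a single count (Madcam1 in GB-IL 3 and DIO 4, Itgb6 in RYGB 4), where the ratio follows the steps of counting, and 12 are more than that. RYGB 5 held 5 of the 15 member values. It had Itga2 at 0.623 CPM (0 to 0.106 in the others of its group), Itga2b at 7.68 CPM (2.15 to 3.75 in the others of its group) and Itga6 at 8.93 CPM (1.28 to 2.03 in the others of its group). It also had Itgam at 10.97 CPM (1.04 to 3.06 in the others of its group) and Itgb3 at 43.8 CPM (4.51 to 6.67 in the others of its group). Among its marker sums, RYGB 5 stood apart for the neutrophil list at 136 CPM (8.86 to 13.99 in the others of its group), the platelet list at 12.5 CPM (0.866 to 2.36 in the others of its group) and the sinusoidal endothelial list at 592 CPM (207 to 303 in the others of its group). The same liver had the stellate cell list at 509 CPM (296 to 357 in the others of its group) and the skeletal muscle list at 1.60 CPM (0.780 to 1.01 in the others of its group). GB-IL 1 stood apart for Sele at 0.946 CPM (0.0848 to 0.226 in the others of its group), squamous markers at 415 CPM (0.306 to 32.5 in the others of its group) and skeletal muscle markers at 1268 CPM (0.880 to 3.17 in the others of its group). It did so too for smooth muscle markers at 281 CPM (23.6 to 35.1 in the others of its group) and pancreas markers at 1256 CPM (7.99 to 13.9 in the others of its group). GB-IL 3 had Itgb7 at 11.1 CPM (1.51 to 2.36 in the others of its group) and Madcam1 at 0.0424 CPM (0 in the others of its group), and GB-IL 4 had Itga8 at 8.23 CPM (1.69 to 2.76 in the others of its group). Among the controls, DIO 1 had Itga5 at 21.04 CPM (15.4 to 16.6 in the others of its group), and DIO 2 had Itgal at 23.2 CPM (11.7 to 14.2 in the others of its group) and Itgb2 at 15.6 CPM (6.78 to 9.26 in the others of its group). DIO 4 had Madcam1 at 0.0566 CPM (0 in the others of its group). DIO 5 had skeletal muscle markers at 2.98 CPM (0.885 to 1.14 in the others of its group). RYGB 1 had Itgb7 at 2.52 CPM (1.16 to 1.53 in the others of its group), and RYGB 4 had Itgb6 at 0.0414 CPM (0.0986 to 0.109 in the others of its group), or 1 count against 2 or 3.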

How the results depend on the processing

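For GB-IL against DIO, 465 genes over the whole table and 2 adhesion genes passed the threshold. DESeq2 gave 1292 and 11, the edgeR exact test 1129 and 9, and voom (liver quality weights) 7 adhesion genes. Fitting the 2 groups alone with edgeR gave 0 and 0 (2352 genes and 14 adhesion genes at an unadjusted p below 0.05), and leaving out GB-IL 1 and 2 together, chosen after seeing the data, 0 and 0 (1267 and 9); the fit then had fewer livers. With 1 liver left out at a time the counts ran from 0 to 3572 genes and from 0 to 15 adhesion genes, lowest without GB-IL 1 among others and highest without GB-IL 4. RLE scaling gave 472 genes and 2 adhesion genes, upper quartile scaling 535 and 2, and no filter 522 and 2. The stricter filter gave 2 adhesion genes as well. For RYGB against DIO 0 genes and 0 adhesion genes passed by edgeR's quasi-likelihood test, with 1241 genes at an unadjusted p below 0.05. DESeq2 gave 97 and 1, the exact test 44 and 1, voom 1690 and 4, and the 2 groups alone 33 and 1. Leaving out 1 liver gave 0 to 5 genes and 0 adhesion genes. For GB-IL against RYGB, where edgeR's quasi-likelihood test gave 0 and 0 and 3147 genes had an unadjusted p below 0.05, DESeq2 gave 845 and 1, the exact test 681 and 1, voom 115 and 0, and no filter 51 genes. Leaving out 1 liver gave 0 to 3120 genes and 0 to 9 adhesion genes, highest without GB-IL 4. The median log2 fold change of the members in that comparison went from 0.51 to 0.0039 without GB-IL 1 and 2. In GB-IL against DIO it stayed between 0.60 and 0.82 over the single omissions and was 0.43 without GB-IL 1 and 2. With the replicate number as a block, GB-IL against DIO gave 1 gene and 0 adhesion genes. The correlation of livers with the same number, after group means were removed, ran from -0.381 to 0.381. Livers with different numbers were not correlated for reference, so whether the numbers mark a pairing cannot be told. For the 8 named members the log2 fold changes under the alternatives gave 192, 184 and 192 values in the 3 comparisons. Of these 158, 179 and 190 stayed on their side of the threshold. In GB-IL against DIO 24 lost the threshold and 10 gained it, and 5 and 2 gained it in the other comparisons. No value past the threshold changed sign; 8, 0 and 3 values short of it did, all of Itgb1, Itgb5 or Selp. The cause was not tested. With 4 or 5 livers a group, totals of 18223135 to 28656631 counts and a GB-IL group as spread as this one, small differences in scarce members such as Itga2, Sele and Madcam1 could not be measured.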
